A study of Mus musculus with 64 samples.

Results

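Heart muscle cells of adult mice were compared 3 days after a myocardial infarction (MI) and 3 days after a sham operation. The comparison used 8 of the 64 RNA libraries of the series, 4 from cardiomyocytes of infarcted hearts and 4 from cardiomyocytes of sham-operated hearts, chosen by their labels, and all 20637 genes of the deposited table. The mice were CD1 males, an outbred strain, operated on at 8 weeks of age (P56). For MI the left descending coronary artery was tied off permanently under isoflurane, and sham mice went through the same surgery, with the chest opened and the pericardial sac removed, but without the ligation. Both groups shared the later steps, in which the heart was perfused with the collagenase mixture Liberase, the atria were removed and myocytes were separated from non-myocytes on Percoll. The labels do not say that the border or the infarct was separated from distant muscle, so cells of the whole ventricles that survived ligation and digestion were measured together. Nor do the labels say that the libraries of a group came from separate animals, so p-values measure only the spread between libraries. For MI against sham, that spread was estimated from these 8 libraries together with the cardiomyocyte libraries of pups described next. The other libraries used for comparison came from cardiomyocytes of CD1 pups operated on at postnatal day 1 (P1), also MI and sham, in pools of 6 ventricles, and from fibroblasts (sorted with CD90), leukocytes (CD45) and endothelial cells (CD31) of the P56 hearts, with 4 libraries in each group. Libraries are called MI 1 to MI 4 and sham 1 to sham 4 by the replicate numbers of their labels.

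An adult ventricular cardiomyocyte is a large, mitochondria-rich cell that lives on fatty acids, contracts through sarcomeres anchored at Z-discs, and rarely divides. Around an infarct the surviving cells meet stretch, lack of oxygen and inflammatory cytokines, and they are known to raise a stress programme of natriuretic peptides, cytoskeletal and acute phase genes while parts of the contractile, ion channel and oxidative programme decline. In the same days neutrophils, then monocytes and macrophages, enter the tissue, and fibroblasts begin to build the scar.

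Between 20.2 and 27.5 M reads were recovered from each of the 8 libraries, and 3 reads were worth 0.158 to 0.372 CPM, the floor for counting error alone. CPM here are the authors' normalised read counts. Mitochondrial ribosomal RNA took 20.3%, 26.9%, 12.1% and 27.3% of the reads in MI 1 to MI 4, against 29.9%, 28.6%, 38.2% and 23.1% in sham 1 to sham 4 (exact permutation test, two-sided, p = 0.143, adjusted over 4 measures 0.305; the smallest p that 4 against 4 allows is 0.0286). Nuclear ribosomal RNA was 0.178% ± 0.177 after MI and 2.86% ± 3.41 after sham (SD, n = 4 each). MI 3 stood apart: over 13731 genes its correlation with the other MI libraries was 0.910 to 0.937, against 0.967 to 0.983 among those 3, and it separated from the other 7 libraries on the second principal component, which held 28.5% of the variance. It had 11222 CPM of the nuclear RNA Malat1, against 1592 to 2545 CPM in the other MI libraries and 1640 to 3047 CPM in the sham libraries. Its Ptprc, which encodes the leukocyte surface protein CD45, was 33.2 CPM, against 4.76 to 9.37 CPM in the other MI libraries and 1.49 to 5.01 CPM in the sham libraries. Results are therefore given with and without MI 3.

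The defining markers fitted the label: the 14 cardiomyocyte markers summed to 160239 to 198099 CPM after MI and 192994 to 223716 CPM after sham, and limma and edgeR called 0 of the 14 (1 lower at an unadjusted p under 0.05 in limma, 1 lower called without MI 3). Markers of other cell types were present in every library, and the sums of some of them differed between the groups. The 12 pan-leukocyte markers summed to 91.7 to 336 CPM after MI and 16.3 to 65.2 CPM after sham, the 12 monocyte and macrophage markers to 353 to 844 CPM and 81.4 to 371 CPM, and the 12 neutrophil markers to 5.24 to 25.3 CPM and 0.745 to 5.96 CPM. The macrophage and neutrophil sums overlapped, as sham 3 lay above MI 2 in both. Of the neutrophil markers, 3 had no read in any MI library. The 13 fibroblast markers summed to 1583 to 3411 CPM after MI and 382 to 1152 CPM after sham, and the 7 epicardial markers to 31.5 to 67.7 CPM and 11.0 to 15.6 CPM. The 14 endothelial markers tended the other way, with an overlap, at 1222 to 1602 CPM after MI and 1475 to 2377 CPM after sham, while the 11 mural cell markers overlapped at 1397 to 1921 CPM and 1498 to 2061 CPM. Set against the sorted cells of the same infarcted hearts, the cardiomyocyte libraries after MI held 3.93% of the pan-leukocyte sum of sorted leukocytes, 4.14% of the fibroblast sum of sorted fibroblasts and 9.49% of the endothelial sum of sorted endothelial cells. These percentages, and the ratios between populations below, compare the authors' normalised CPM. They are not shares of reads or of cells. The CPM columns summed to 1.45 to 2.18 M in the MI cardiomyocyte libraries. After MI the sums were 0.793 to 0.965 M in leukocytes, 0.857 to 0.893 M in fibroblasts and 0.799 to 0.872 M in endothelial cells. The 12 T and NK cell markers overlapped, at 1.13 to 2.21 CPM after MI and 0.421 to 1.91 CPM after sham. The 10 B cell markers also overlapped, at 14.2 to 24.0 CPM and 11.9 to 21.4 CPM. Among these lymphocyte markers, Cd3d, Klrb1c, Ms4a1, Pax5 and Fcmr had no read in any sham library, and 1 T and NK cell marker had none in any MI library. After MI, Klrb1c had 0.0868 CPM in MI 4 and 0 in the others. In such bulk libraries, fewer cells of a type and less RNA per cell cannot be told apart, and the part of these cells in the results below was not tested.

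**Figure D1:**
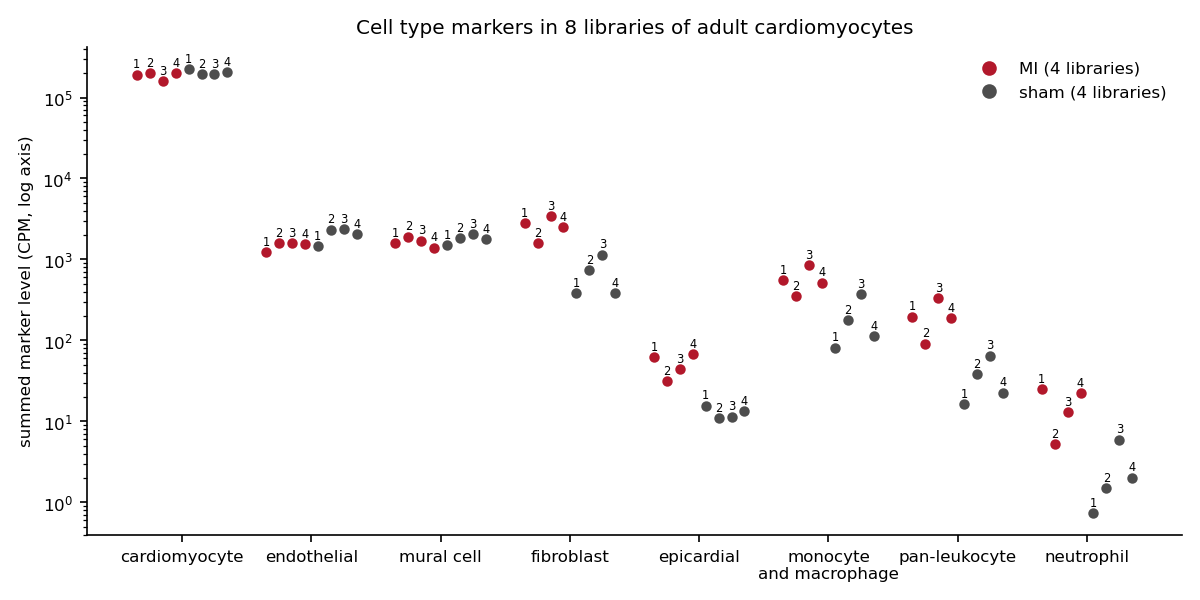
Summed levels of cell type markers in each of the 8 libraries (CPM, log axis; MI in red, sham in grey, numbers are replicates). The cardiomyocyte sums of the groups overlap, every MI library lies above every sham library for the pan-leukocyte, fibroblast and epicardial sums, and MI 3 has the lowest cardiomyocyte sum and the highest leukocyte, macrophage and fibroblast sums, as sham 3 has among the sham libraries.

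Of 15461 genes with at least 1 CPM in 4 of the 16 cardiomyocyte libraries of both ages, 1339 (8.66%) were called higher and 159 (1.03%) lower after MI, at an adjusted p under 0.05 from limma. The median gene changed by 0.08 on the log2 scale. That fit took its spread from the libraries of both ages. In a fit of the 8 P56 libraries alone, 523 of 13731 genes were called higher and 16 lower. Without MI 3, 2175 of 15402 genes (14.1%) were called higher and 1504 (9.76%) lower, and 1423 of the 1498 calls (95.0%) were shared. Other single libraries also moved the counts: 849 higher and 47 lower without MI 1, 884 higher without sham 1, 51 lower without MI 4, 315 lower without MI 2, 67 lower without sham 2 and 85 lower without sham 4. With median-of-ratios scaling the calls were 1041 higher and 321 lower, so the share of lower calls depends on the scaling. The 4 MI values lay all above or all below the 4 sham values for 1518 genes (9.82%). Changes below are log2 differences of CPM + 0.5, MI minus sham, with the standard error, and they understate the change of low genes.

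Most genes called higher had their highest level in another cell population of the heart. Among the 1339 higher calls, the mean after MI was highest in cardiomyocytes for 187 (14.0%), in fibroblasts for 465 (34.7%), in leukocytes for 585 (43.7%) and in endothelial cells for 102 (7.62%), while cardiomyocytes held the highest mean for 5847 of all 15461 genes tested (37.8%). Of the 159 lower calls, 80 (50.3%) had their highest mean in cardiomyocytes and 58 in endothelial cells. Without MI 3, cardiomyocytes held the highest mean for 722 of 2175 higher calls (33.2%) and 343 of 1504 lower calls (22.8%), and endothelial cells for 604 of the lower calls (40.2%). The account takes lists of heart muscle, metabolism, stress and cell cycle genes first and those of scar and inflammation after them. Several of the first lists also had few members with their highest mean after MI in cardiomyocytes. These were 1 of 19 immediate early and heat shock genes, 2 of 16 dedifferentiation and repair regulators and 2 of 25 cell death regulators. The same held for 1 of 25 G2 and M phase, 1 of 25 DNA replication, 6 of 25 interleukin 6 and acute phase and 6 of 22 endoplasmic reticulum genes.

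The natriuretic peptides are hormones released by stretched heart muscle, and they led the fetal and stress genes of the heart, of which 8 of 13 tested were called higher and 0 lower, with or without MI 3. Nppa, the gene of atrial natriuretic peptide (GRCm38 chromosome 4, 148000722 to 148002079), had 2968, 474, 1345 and 1536 CPM in MI 1 to MI 4, against 110.0, 201, 431 and 427 CPM in sham 1 to sham 4. Nppa's log2 change was 2.37 ± 0.46 (adjusted p = 0.0022), and 2.35 without MI 3. Every MI library was above every sham library, with MI 1 the highest and MI 2 close to sham 3 and sham 4. Nppb, which encodes brain natriuretic peptide (chromosome 4, 147985788 to 147987205), had 6085, 1352, 950.2 and 3886 CPM in MI 1 to MI 4, against 221, 639, 1111 and 624 CPM in sham 1 to sham 4. Nppb's log2 change was 2.07 ± 0.49 (adjusted p = 0.0095), and 2.50 without MI 3. Here the groups overlapped, since MI 3 lay below sham 3, and the call was lost in a fit of these 8 libraries alone (adjusted p = 0.076), over a range of 1.6e-05 to 0.076 across 20 alternatives. Uchl1, a ubiquitin hydrolase found in stressed heart muscle, had 7.51, 2.90, 5.17 and 8.50 CPM in MI 1 to MI 4, against 0.621, 2.17, 2.15 and 1.82 CPM in sham 1 to sham 4. Uchl1's log2 change was 1.56 ± 0.30 (adjusted p = 0.0021), and 1.60 without MI 3. Its groups did not overlap. The count of higher members of this list was 3 without MI 1, 5 without MI 4, sham 3 or sham 4 and 4 without sham 1. It ran from 2 to 9 over the alternatives other than the 2-fold limit.

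The atrial light chains Myl4 and Myl7 are fetal genes in the ventricle, and both were highest in MI 1 and MI 4. Myl4 had 382, 51.02, 72.1 and 157 CPM in MI 1 to MI 4, against 37.99, 55.6, 32.1 and 15.1 CPM in sham 1 to sham 4. Myl4's log2 change was 1.92 ± 0.51 (adjusted p = 0.022), and 2.17 without MI 3. MI 1 and MI 4 were far above the rest, while MI 2 lay inside the sham range, and the call was lost without MI 1, MI 4 or sham 4 (adjusted p = 0.089, 0.069 and 0.080) and in a fit of these 8 libraries alone (0.080), over a range of 0.0041 to 0.089 across 20 alternatives. The slow myosin heavy chain Myh7 and the skeletal actin Acta1, both classic members of the fetal programme, were not called: Myh7 averaged 2846 ± 574 CPM after MI and 3426 ± 561 CPM after sham and Acta1 4378 ± 979.8 CPM after MI and 5315 ± 3152 CPM after sham (SD, n = 4 each). Myh6, the adult myosin heavy chain, had 25066, 36157, 30567 and 33171 CPM in MI 1 to MI 4, against 64412, 47156, 40636 and 50572 CPM in sham 1 to sham 4, groups that did not overlap, with a change of -0.69 ± 0.30, adjusted p = 0.16, which missed the threshold (between 0.064 and 0.40 over 20 alternatives).

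Stretch also acts on the Z-disc and on the cytoskeleton attached to it. Of 25 genes of Z-disc and linker proteins, 6 were called higher and 0 lower, and 11 higher and 1 lower without MI 3. Ankrd2, a stretch-responsive ankyrin repeat protein of the sarcomere, had 24.01, 9.19, 9.33 and 21.4 CPM in MI 1 to MI 4, against 0.869, 1.70, 1.19 and 0.631 CPM in sham 1 to sham 4. Ankrd2's log2 change was 3.28 ± 0.29 (adjusted p = 2.5e-06), and 3.48 without MI 3. Fhl1, a LIM protein known for its part in hypertrophic signalling at the sarcomere, had 1865, 428, 964 and 1003 CPM in MI 1 to MI 4, against 156, 195, 197 and 171 CPM in sham 1 to sham 4. Fhl1's log2 change was 2.39 ± 0.28 (adjusted p = 3.9e-05), and 2.37 without MI 3. Synpo2l, a Z-disc protein, had 750.0, 213, 308 and 607 CPM in MI 1 to MI 4, against 142, 145, 168 and 171 CPM in sham 1 to sham 4. Synpo2l's log2 change was 1.41 ± 0.32 (adjusted p = 0.0065), and 1.56 without MI 3. The groups did not overlap in any of the 3 genes, MI 1 was the highest and MI 2 the lowest MI library in each, and all 3 were called under every one of the 20 alternatives. Ankrd1, the cardiac ankyrin repeat protein and a target of the Hippo pathway's co-activator YAP, had 6366, 2469, 6027 and 3893 CPM in MI 1 to MI 4, against 1313, 2769, 1447 and 3037 CPM in sham 1 to sham 4. Ankrd1's log2 change was 1.13 ± 0.31 (adjusted p = 0.027), and 0.98 without MI 3. The groups overlapped, as MI 2 lay inside the sham range, and the call was lost without MI 1, sham 1 or sham 3 (adjusted p = 0.10, 0.11 and 0.073), without MI 3 and sham 3 (0.076) and in a fit of these 8 libraries alone (0.13), over a range of 0.0037 to 0.13 across 20 alternatives. The list's higher count was 3 without MI 1 and 11 without MI 3, and 2 to 12 over the alternatives other than the 2-fold limit.

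Tubulins and intermediate filaments moved in 1 direction, with 11 of 18 tested members higher, 0 lower and 18 of 18 changes positive (13 higher without MI 3). Tubb3, a tubulin best known from neurons, had 26.98, 2.50, 9.97 and 26.5 CPM in MI 1 to MI 4, against 0.124, 0.0944, 0.477 and 0 CPM in sham 1 to sham 4. Tubb3's log2 change was 4.24 ± 0.55 (adjusted p = 7.9e-05), and 4.32 without MI 3. Tubb2b had 13.5, 2.58, 6.06 and 9.80 CPM in MI 1 to MI 4, against 0.745, 1.60, 1.07 and 1.19 CPM in sham 1 to sham 4. Tubb2b's log2 change was 2.18 ± 0.32 (adjusted p = 0.00022), and 2.23 without MI 3. The groups of both genes were separate, and MI 2 was again the lowest MI library. Fibroblasts held more of both after MI, with a mean of 21.6 CPM of Tubb3 and 17.3 CPM of Tubb2b. Of the 15 intercalated disc genes, which join neighbouring cells, 2 were higher and 1 lower, beside 8.66% and 1.03% of all genes. The higher count of that list was 0 without MI 1, MI 4, sham 1, sham 2, sham 3 or sham 4. Its lower count was 0 without MI 1, MI 4, sham 1, sham 2 or sham 4 and 2 without MI 3, where 9.76% of all genes were lower.

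The stretches before the transcription start are shown for a pair of stress genes that differ in their letters there. The 250 bases before the start are given 5′ to 3′ on the strand of the gene, with the start as RefSeq places it on GRCm38.p6. Capitals mark matches, on either strand, to TGANTCA, which is read by AP-1. The other motifs searched were CATTCC, which is bound by TEAD factors, the partners of YAP, and AGATAA of the factors called GATA. The STAT and ERR motifs are spelled out below.
Sprr1a, chr3:92485882-92486131 (-): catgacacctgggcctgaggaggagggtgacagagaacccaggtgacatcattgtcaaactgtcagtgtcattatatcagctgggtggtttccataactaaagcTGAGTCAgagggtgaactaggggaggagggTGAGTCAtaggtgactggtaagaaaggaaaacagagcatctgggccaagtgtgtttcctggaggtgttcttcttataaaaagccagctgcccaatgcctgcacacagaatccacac
Nppa, chr4:148000472-148000721 (+): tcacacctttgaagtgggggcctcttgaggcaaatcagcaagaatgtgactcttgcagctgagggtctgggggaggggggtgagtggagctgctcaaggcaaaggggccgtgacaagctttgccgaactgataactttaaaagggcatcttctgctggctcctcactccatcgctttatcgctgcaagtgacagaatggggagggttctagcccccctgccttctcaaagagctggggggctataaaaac
Sprr1a had 2 copies of TGAGTCA, starting 146 and 116 bases before the start, and Nppa had no match of the 5 motifs searched, which says only that these letters are not in this window. Nppa's window does hold TGATAA, which differs from AGATAA in its first letter and was not searched. GENCODE M21 starts Sprr1a further upstream, so that the last 14 bases shown are exonic there. In windows of 300 bases (250 before to 50 after the start) of all 10559 tested genes found in the promoter table, TGANTCA was in 9.66% of the 963 genes called higher, 6.19% of the 97 called lower and 6.28% of all. CATTCC was in 16.5%, 17.5% and 14.85% of the same groups, AGATAA in 8.72%, 10.3% and 8.02%, the STAT motif TTCNNNGAA in 8.62%, 10.3% and 8.38%, and the ERR motif AAGGTCA in 3.84%, 2.06% and 4.04%. These shares are descriptions, without a test.

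**Figure D2:**
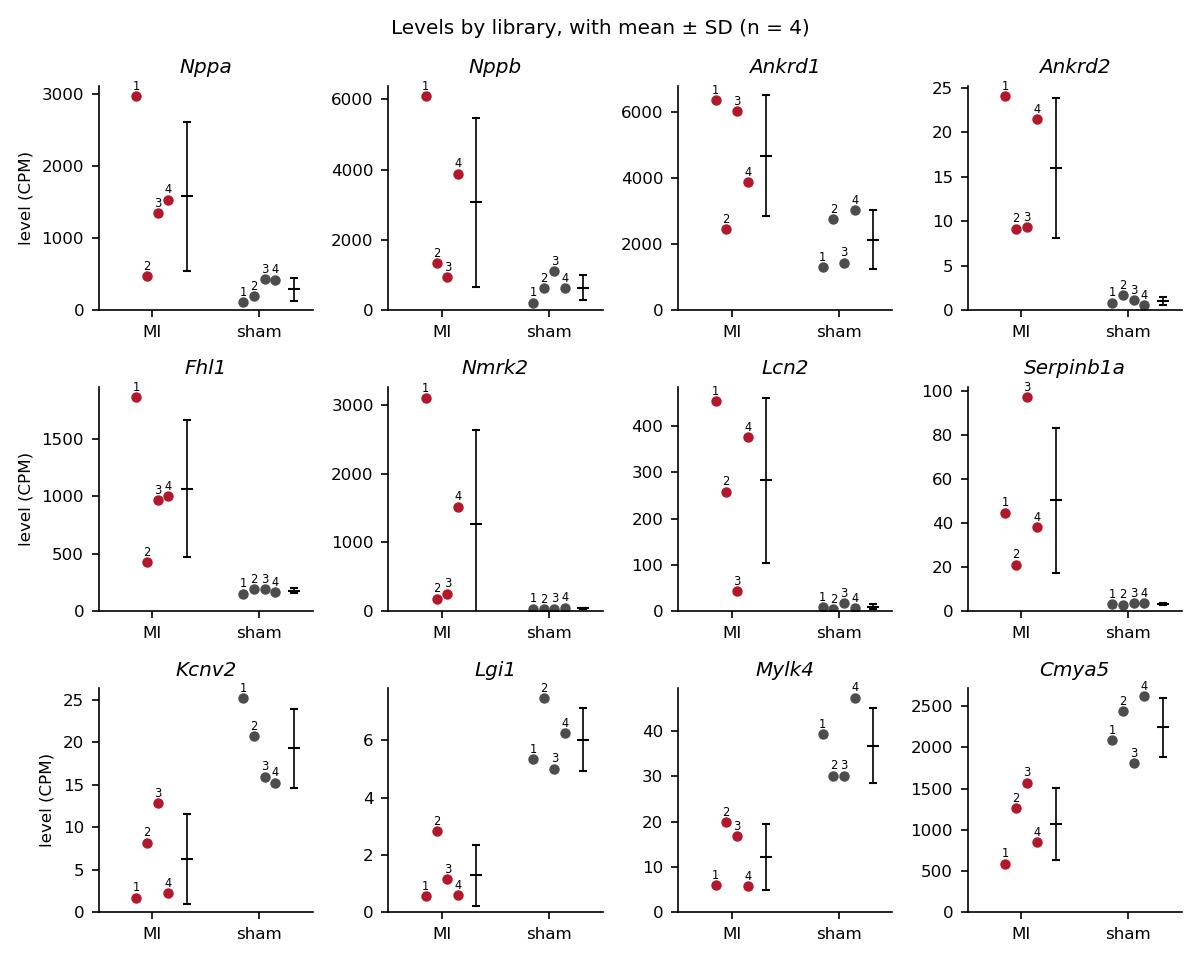
Levels of 12 genes in each library (CPM, linear axes from 0; MI in red left of sham in grey, numbers are replicates, bars are mean ± SD, n = 4; the lower end of the SD bar of Nmrk2 after MI is cut at 0). MI libraries lie above sham for Nppa, Ankrd2, Fhl1, Nmrk2, Lcn2 and Serpinb1a, overlap with sham for Nppb and Ankrd1, and lie below sham for Kcnv2, Lgi1, Mylk4 and Cmya5.

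Among the 15 largest increases by the naming rule, 3 had their highest mean after MI in cardiomyocytes: Nmrk2, Lcn2 and Sprr1a. Nmrk2, a kinase that makes the coenzyme NAD from nicotinamide riboside in muscle, had 3095, 184, 257 and 1519.7 CPM in MI 1 to MI 4, against 40.3, 32.4, 42.1 and 55.9 CPM in sham 1 to sham 4. Nmrk2's log2 change was 4.02 ± 0.59 (adjusted p = 0.00022), and 4.49 without MI 3. All 4 MI values were above the sham values, but they ran from MI 2 to MI 1 over a wide range. Its mean after MI was 76.7 times the highest mean of the other 3 populations, and 39.7 times without MI 1. Lcn2, an iron-binding acute phase protein, had 453, 258, 44.1 and 375 CPM in MI 1 to MI 4, against 9.93, 4.91, 17.5 and 7.71 CPM in sham 1 to sham 4. Lcn2's log2 change was 4.46 ± 0.60 (adjusted p = 0.00011), and 5.21 without MI 3. MI 3 was its lowest MI library, and its mean was 14.2 times the next population's. Sprr1a, a small proline-rich protein of stressed heart muscle, had 35.6, 0.887, 68.4 and 7.64 CPM in MI 1 to MI 4, against 0.124, 0, 0 and 0 CPM in sham 1 to sham 4. Sprr1a's log2 change was 4.61 ± 0.75, adjusted p = 0.00047. Only 1 sham read was found, so the fitted change depends on the pseudocount; the ratio of summed reads was 1373 (95% counting interval 246 to 54271), and without MI 3 the gene did not reach the minimum level for a test.

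Fewer genes fell than rose. Of the 15 largest decreases by the naming rule, the first were Lgi1, Kcnv2 and Mylk4. Lgi1, a secreted protein known from nerve cells, had 0.578, 2.82, 1.16 and 0.607 CPM in MI 1 to MI 4, against 5.34, 7.45, 5.01 and 6.24 CPM in sham 1 to sham 4. Lgi1's log2 change was -2.01 ± 0.30 (adjusted p = 0.00022), and -2.03 without MI 3. Kcnv2, a silent subunit of voltage-gated potassium channels, had 1.73, 8.22, 12.9 and 2.26 CPM in MI 1 to MI 4, against 25.2, 20.8, 15.97 and 15.3 CPM in sham 1 to sham 4. Kcnv2's log2 change was -1.91 ± 0.40 (adjusted p = 0.0043), and -2.36 without MI 3. That call was lost in a fit of these 8 libraries alone (adjusted p = 0.0519), over a range of 4.3e-06 to 0.0519 across 20 alternatives. Mylk4, a kinase of the myosin light chain kinase family, had 6.02, 19.9, 16.8 and 5.81 CPM in MI 1 to MI 4, against 39.4, 30.2, 30.2 and 47.4 CPM in sham 1 to sham 4. Mylk4's log2 change was -1.74 ± 0.36 (adjusted p = 0.0036), and -1.96 without MI 3. The groups did not overlap for any of the 3. In Kcnv2 and Mylk4, MI 1 and MI 4 were the lowest libraries, the same ones that were highest in Nppb and Nmrk2. Cmya5, a large protein of the costamere and Z-disc, had 592, 1268, 1571 and 851 CPM in MI 1 to MI 4, against 2091, 2440.1, 1813 and 2617 CPM in sham 1 to sham 4. Cmya5's log2 change was -1.15 ± 0.26 (adjusted p = 0.0077), and -1.36 without MI 3. There was no overlap, and the call was lost in a fit of these 8 libraries alone (adjusted p = 0.0512), over a range of 2.8e-05 to 0.0512 across 20 alternatives.

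The sequence before Mylk4 is shown because it holds the motif of the estrogen-related receptors (ERR), regulators of oxidative metabolism, among the genes that fell, with the match to AAGGTCA in capitals. It starts 145 bases before the start, as its reverse complement. All 250 bases lie upstream of the gene as GENCODE M21 places it, and inside the longer gene span of RefSeq's table.
Mylk4, chr13:32783965-32784214 (-): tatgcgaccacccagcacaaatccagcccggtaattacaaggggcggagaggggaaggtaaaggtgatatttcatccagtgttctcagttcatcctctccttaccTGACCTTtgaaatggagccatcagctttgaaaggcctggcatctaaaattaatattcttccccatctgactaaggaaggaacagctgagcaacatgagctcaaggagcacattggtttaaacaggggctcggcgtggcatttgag
As given above, AAGGTCA was in 2 of the 97 windows of genes called lower (2.06%) and in 4.04% of all, which is a description without a test.

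Of 21 calcium handling genes, which couple excitation to contraction, 1 was higher and 2 were lower, beside 8.66% and 1.03% of all genes. Without MI 3, 3 were higher and 7 lower, beside 14.1% and 9.76% of all genes. The lower count ran from 0 to 7 over the alternatives other than the 2-fold limit. Sln, which encodes the calcium pump inhibitor sarcolipin, had 35.3, 8.14, 16.2 and 20.3 CPM in MI 1 to MI 4, against 3.35, 10.6, 4.65 and 2.73 CPM in sham 1 to sham 4. Sln's log2 change was 1.81 ± 0.45 (adjusted p = 0.013), and 1.85 without MI 3. Here MI 2 lay inside the sham range, and the call was lost without MI 1 or sham 4 (adjusted p = 0.062 and 0.0524), over a range of 0.0026 to 0.062 across 20 alternatives. The calcium pump gene of the sarcoplasmic reticulum, Atp2a2, had 8052, 19930.4, 14197 and 8452 CPM in MI 1 to MI 4, against 24819.5, 22173, 14895 and 23789.6 CPM in sham 1 to sham 4. Atp2a2's log2 change was -0.83 ± 0.29, adjusted p = 0.083 (without MI 3 -0.92, adjusted p = 0.036, which is under the threshold; between 0.0013 and 0.27 over 20 alternatives). Its inhibitor Pln had a change of -0.57 ± 0.28, adjusted p = 0.22, and -0.78, adjusted p = 0.041 without MI 3 (between 0.0079 and 0.52 over 20 alternatives). The lower count of the list was 1 without MI 1, MI 4, sham 1, sham 2 or sham 4 and 7 without MI 3, and the higher count was 0 without MI 1 or sham 4 and 3 without MI 3.

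Of 21 potassium, sodium and pacemaker channel genes, 1 was higher and 1, Kcnv2, lower, beside 8.66% and 1.03% of all genes. Without MI 3 these shares of all genes were 14.1% and 9.76%. The channel list's higher count was 2 without MI 2, MI 3 or sham 4, and its lower count was 4 without MI 2, 3 without MI 3 and 2 without sham 2 or sham 3. Of 18 adrenergic and G protein signalling genes, 1 was higher (0 without MI 1, sham 1 or sham 3 and 2 without MI 3) and 1 lower. The lower one was the receptor gene Adra1a, with 17.2, 38.9, 36.9 and 26.2 CPM in MI 1 to MI 4, against 60.2, 57.3, 37.9 and 52.4 CPM in sham 1 to sham 4. Adra1a's log2 change was -0.84 ± 0.24 (adjusted p = 0.030), and -0.96 without MI 3. Sham 3 lay below MI 2, and the call was lost without MI 1, MI 4, sham 1, sham 2 or sham 4 (adjusted p = 0.12, 0.084, 0.094, 0.083 and 0.065), with scaling to nuclear RNA other than ribosomal RNA (0.068) and in a fit of these 8 libraries alone (0.12), over a range of 0.00061 to 0.12 across 20 alternatives.

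Genes of energy metabolism gave few calls with all 4 MI libraries, and more lower calls when MI 3 was left out, as did all genes together, of which 9.76% were then called lower. Of 24 fatty acid oxidation genes 0 were higher and 1 lower, though 23 of the 24 changes were negative, with a median of -0.23 (-0.12 without MI 3) against 0.08 over all genes; the lower count was 0 without MI 1, MI 4, sham 1, sham 2 or sham 4, 4 without MI 3 and 2 without sham 3. The called gene, Etfa, which passes electrons from fatty acid oxidation to the respiratory chain, had 134, 287, 391 and 212 CPM in MI 1 to MI 4, against 463, 523, 309.8 and 404 CPM in sham 1 to sham 4. Etfa's log2 change was -0.81 ± 0.25 (adjusted p = 0.0496), and -1.05 without MI 3. MI 3 lay inside the sham range, and the call was lost without MI 1, MI 4, sham 1, sham 2 or sham 4 (adjusted p = 0.19, 0.13, 0.13, 0.15 and 0.085), with a pseudocount of 1 (0.052), with no filter on low values (0.060), with a filter of 5 CPM (0.0542), with scaling to nuclear RNA other than ribosomal RNA (0.11), in edgeR on recovered reads (0.0504) and in a fit of these 8 libraries alone (0.20), over a range of 0.00028 to 0.20 across 20 alternatives. Of 24 genes of pyruvate dehydrogenase and the citric acid cycle and of 25 nuclear genes of the respiratory chain, limma and edgeR called 0 each, with 3 lower in each at an unadjusted p under 0.05 and 3 lower called in each without MI 3, a share near that of all genes. The median of the respiratory chain list was -0.14 with all 4 MI libraries and 0.09 without MI 3. Of 20 genes of ketone and branched-chain amino acid oxidation limma called 0 (8 lower at an unadjusted p under 0.05) and edgeR 2 lower; limma's lower count was 3 without MI 2 or sham 3 and 6 without MI 3. Oxct1, the enzyme by which heart muscle activates ketone bodies, had 685, 1306, 1711 and 684 CPM in MI 1 to MI 4, against 1771, 1682, 1353 and 2237 CPM in sham 1 to sham 4. Oxct1's log2 change was -0.78 ± 0.25, adjusted p = 0.060 (without MI 3 -1.03, adjusted p = 0.0027; between 9.0e-05 and 0.24 over 20 alternatives). MI 1 and MI 4 were the lowest, and MI 3 lay inside the sham range.

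Of 7 mitochondrially encoded mRNAs tested, 0 were higher and 1 lower, and 7 of 7 changes were negative, with 3 lower without MI 3. The called one, mt-Nd6, a subunit of complex I, had 154, 289, 339 and 241 CPM in MI 1 to MI 4, against 645, 368, 426 and 479 CPM in sham 1 to sham 4. mt-Nd6's log2 change was -0.93 ± 0.27 (adjusted p = 0.032), and -1.09 without MI 3. The groups did not overlap, and the call was lost without MI 1, MI 4, sham 1 or sham 4 (adjusted p = 0.13, 0.077, 0.12 and 0.069), with scaling to nuclear RNA other than ribosomal RNA (0.057) and in a fit of these 8 libraries alone (0.079), over a range of 0.0062 to 0.13 across 20 alternatives. The mitochondrial isoleucine transfer RNA mt-Ti, among the 15 largest decreases, had 4.04, 12.3, 5.06 and 4.77 CPM in MI 1 to MI 4, against 13.5, 20.1, 26.9 and 17.6 CPM in sham 1 to sham 4. mt-Ti's log2 change was -1.60 ± 0.29 (adjusted p = 0.0014), and -1.53 without MI 3. It was also without overlap. Mitochondrial ribosomal RNA was described above, and the share of mitochondrial mRNA was 2.96% ± 0.743 after MI and 3.60% ± 0.923 after sham (exact permutation test, two-sided, p = 0.343, adjusted 0.343).

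Of 23 genes of glucose uptake and glycolysis 3 were higher and 0 lower, beside 8.66% and 1.03% of all genes. The higher count was 8 without MI 3, where 14.1% of all genes were higher. Slc16a3, which exports lactate, had 79.5, 16.6, 25.05 and 48.5 CPM in MI 1 to MI 4, against 2.48, 3.68, 4.53 and 4.21 CPM in sham 1 to sham 4. Slc16a3's log2 change was 3.13 ± 0.39 (adjusted p = 6.0e-05), and 3.29 without MI 3. Slc2a1, the basal glucose transporter, had 107, 41.99, 43.5 and 79.4 CPM in MI 1 to MI 4, against 22.2, 24.5, 29.7 and 34.98 CPM in sham 1 to sham 4. Slc2a1's log2 change was 1.18 ± 0.28 (adjusted p = 0.0099), and 1.36 without MI 3. Both were separate between the groups and called under every alternative. In both genes MI 1 and MI 4 were the highest libraries. Sorted leukocytes held 152 CPM of Slc16a3 and 75.9 CPM of Slc2a1 after MI. Of 11 genes of the creatine kinase and high-energy phosphate system limma called 0, also without MI 3 (1 at an unadjusted p under 0.05), and edgeR called 1 higher. Among 19 hypoxia response genes 3 were higher and 0 lower, namely Slc2a1, Hmox1 and Car9.

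Of the 24 cardiac and metabolic transcription factors limma and edgeR called 0 (3 lower at an unadjusted p under 0.05, and 4 lower called without MI 3, beside 9.76% of all genes). In contrast, 7 of 16 dedifferentiation and repair regulators were called higher and 0 lower (8 higher without MI 3). Their higher count ran from 4 to 9 over the alternatives other than the 2-fold limit. Atf3, a stress-induced repressor, had 90.7, 47.2, 104 and 90.8 CPM in MI 1 to MI 4, against 30.4, 26.8, 13.5 and 21.1 CPM in sham 1 to sham 4. Atf3's log2 change was 1.84 ± 0.26 (adjusted p = 0.00015), and 1.71 without MI 3. Myc, a growth-promoting factor, had 11.1, 4.43, 3.69 and 9.46 CPM in MI 1 to MI 4, against 1.37, 1.98, 1.91 and 1.19 CPM in sham 1 to sham 4. Myc's log2 change was 1.74 ± 0.31 (adjusted p = 0.0010), and 1.99 without MI 3. Runx1, a factor known to appear in cardiomyocytes after MI and abundant in blood cells, had 7.76, 2.34, 11.7 and 6.16 CPM in MI 1 to MI 4, against 0.869, 1.51, 1.43 and 0.981 CPM in sham 1 to sham 4. Runx1's log2 change was 1.98 ± 0.35 (adjusted p = 0.0011), and 1.68 without MI 3. The groups did not overlap for any of these 3, each was called under all 20 alternatives, and another population had a higher mean after MI in each: leukocytes with 207 CPM of Atf3 and 125 CPM of Runx1, and fibroblasts with 35.2 CPM of Myc. Of 19 immediate early and heat shock genes 11 were higher and 0 lower, and the higher count was 5 without MI 1, MI 4 or sham 4 and 6 without sham 2. It was 4 to 12 over the alternatives other than the 2-fold limit. Fos, a component of the AP-1 factor, had 245, 52.7, 64.6 and 153 CPM in MI 1 to MI 4, against 54.3, 16.2, 15.5 and 8.20 CPM in sham 1 to sham 4. Fos's log2 change was 2.50 ± 0.46 (adjusted p = 0.0015), and 2.74 without MI 3. Sham 1 lay just above MI 2.

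The acute phase and interleukin 6 list, whose signal passes through the kinase JAK and the factor STAT3, had 10 of 25 members higher and 0 lower, and 13 higher and 2 lower without MI 3; the higher count was 6 without MI 4. Socs3, the feedback inhibitor of that signal, had 72.4, 26.8, 29.4 and 54.5 CPM in MI 1 to MI 4, against 7.70, 4.34, 15.7 and 4.98 CPM in sham 1 to sham 4. Socs3's log2 change was 2.46 ± 0.37 (adjusted p = 0.00027), and 2.63 without MI 3. Serpina3n, a secreted protease inhibitor, had 184, 144, 25.6 and 349 CPM in MI 1 to MI 4, against 3.35, 5.10, 15.4 and 4.07 CPM in sham 1 to sham 4. Serpina3n's log2 change was 4.31 ± 0.65 (adjusted p = 0.00024), and 5.07 without MI 3. In both the groups were separate. In Serpina3n, as in Lcn2, MI 3 was the lowest MI library. Timp1, an inhibitor of matrix proteases that belongs to this list and to that of the proteases, had 84.7, 21.3, 47.8 and 58.4 CPM in MI 1 to MI 4, against 0.621, 0.283, 1.55 and 0.701 CPM in sham 1 to sham 4. Timp1's log2 change was 5.31 ± 0.42 (adjusted p = 4.5e-07), and 5.30 without MI 3.

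Lists of genes that handle protein and oxidative damage varied in their higher calls. Over all genes 8.66% were called higher and 1.03% lower, and 14.1% and 9.76% without MI 3. Of 20 antioxidant genes 4 were higher and 0 lower, and the higher count was 2 without MI 1, sham 1, sham 2 or sham 4. It was 1 to 6 over the alternatives other than the 2-fold limit. Hmox1, which degrades haem, had 72.4, 38.4, 100.3 and 78.95 CPM in MI 1 to MI 4, against 3.60, 6.70, 7.27 and 4.35 CPM in sham 1 to sham 4. Hmox1's log2 change was 3.58 ± 0.33 (adjusted p = 2.9e-06), and 3.40 without MI 3. The groups did not overlap, while sorted leukocytes held 652 CPM after MI. Of 22 genes of the endoplasmic reticulum and integrated stress response, 9 were higher and 0 lower, and the higher count was 4 without MI 1 or sham 1. It was 2 to 15 over the alternatives other than the 2-fold limit. Sdf2l1, a chaperone component of the reticulum, had 21.2, 10.2, 12.5 and 15.1 CPM in MI 1 to MI 4, against 3.72, 4.62, 4.41 and 3.93 CPM in sham 1 to sham 4. Sdf2l1's log2 change was 1.66 ± 0.21 (adjusted p = 6.0e-05), and 1.72 without MI 3. Psat1, an enzyme of serine synthesis, had 30.4, 5.48, 12.4 and 23.2 CPM in MI 1 to MI 4, against 1.24, 4.43, 2.74 and 2.10 CPM in sham 1 to sham 4. Psat1's log2 change was 2.40 ± 0.38 (adjusted p = 0.00039), and 2.49 without MI 3. Both were called under every alternative and did not overlap. Of 25 cell death regulators 8 were higher and 0 lower; the count was 3 without MI 1, MI 4 or sham 1 and 5 without sham 2 or sham 4. Of 26 genes of protein breakdown and autophagy 2 were higher, the lysosomal proteases Ctsz and Ctsb, and 4 without MI 3. Both counts were near the share of all genes. Of 22 ribosome biogenesis and translation factors limma and edgeR called 0 (2 higher and 2 lower at an unadjusted p under 0.05, and 4 higher and 5 lower called without MI 3).

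**Figure D3:**
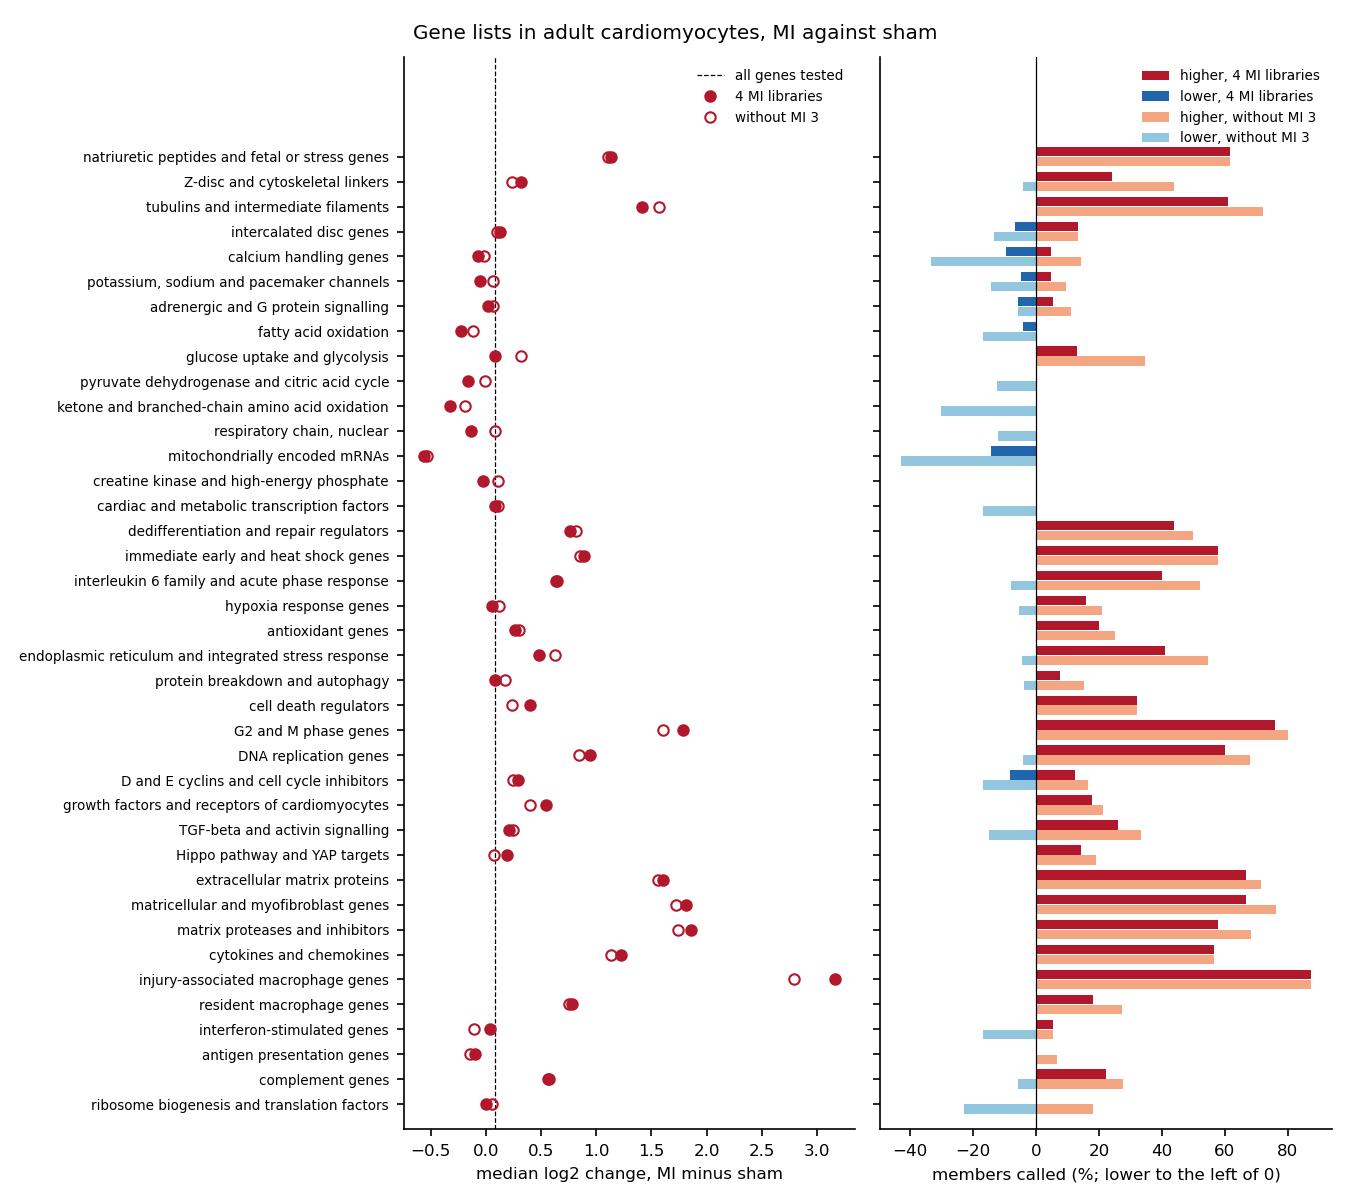
Left, median log2 change (MI minus sham) of the tested members of each gene list, filled with all 4 MI libraries and open without MI 3, beside the median of all genes (dashed). Right, percent of tested members called higher (right of 0) and lower (left of 0). Lists of matrix, macrophage, cytokine, tubulin and cell cycle genes lie to the right with and without MI 3, while lists of oxidative metabolism lie below the median of all genes with all 4 MI libraries, and calls to the left are more numerous without MI 3.

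Cell cycle genes were higher after MI, from low levels. Of 25 genes of the G2 and M phases 19 were higher and 0 lower (20 higher without MI 3), and of 25 DNA replication genes 15 were higher and 0 lower (17 higher and 1 lower without MI 3). These higher counts ran from 15 to 21 and from 10 to 18 over the alternatives other than the 2-fold limit. Cdk1, the kinase that drives mitosis, had 7.76, 3.63, 12.6 and 6.68 CPM in MI 1 to MI 4, against 0.621, 1.23, 0.834 and 1.05 CPM in sham 1 to sham 4. Cdk1's log2 change was 2.41 ± 0.27 (adjusted p = 2.1e-05), and 2.14 without MI 3. Its partner Ccnb2, cyclin B2, had 5.53, 2.18, 7.86 and 4.51 CPM in MI 1 to MI 4, against 0.497, 0.660, 0.238 and 0.140 CPM in sham 1 to sham 4. Ccnb2's log2 change was 2.57 ± 0.27 (adjusted p = 1.1e-05), and 2.33 without MI 3. Mcm3, a subunit of the helicase that opens DNA for replication, had 20.5, 14.02, 21.04 and 19.3 CPM in MI 1 to MI 4, against 4.84, 5.94, 8.94 and 5.96 CPM in sham 1 to sham 4. Mcm3's log2 change was 1.49 ± 0.20 (adjusted p = 0.00011), and 1.43 without MI 3. In all 3 genes the groups did not overlap, MI 2 was the lowest MI library and MI 3 the highest. The mean of the cardiomyocyte libraries after MI was 15.8%, 16.6% and 21.3% of the highest mean of the sorted populations for Cdk1, Ccnb2 and Mcm3. Sorted fibroblasts, with 48.5 CPM of Cdk1 after MI and 1.04 CPM after sham, and leukocytes, with 39.3 and 10.6 CPM, changed in the same direction. The proliferation marker Mki67 had 15.5, 7.09, 62.01 and 8.68 CPM in MI 1 to MI 4, against 1.24, 5.28, 3.81 and 1.61 CPM in sham 1 to sham 4. Mki67's log2 change was 2.39 ± 0.50 (adjusted p = 0.0037), and 1.74 without MI 3. Its mean after MI was 6.91% of the highest other mean, and 3.09% without MI 3.

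Of 24 D and E cyclins and cell cycle inhibitors, 3 were higher and 2 lower, with a higher count of 5 without MI 2 and a lower count of 1 without MI 1, MI 4, sham 1, sham 2 or sham 4 and 4 without MI 3. Among all genes 8.66% were higher and 1.03% lower, and 9.76% were lower without MI 3. E2f1, which switches on replication genes, had 3.80, 1.13, 4.69 and 2.52 CPM in MI 1 to MI 4, against 0.497, 0.566, 0.358 and 0.280 CPM in sham 1 to sham 4. E2f1's log2 change was 1.82 ± 0.29 (adjusted p = 0.00044), and 1.59 without MI 3. No MI value overlapped the sham values. Cdkn1c, an inhibitor of cyclin-dependent kinases, was lower, with 4.79, 14.5, 9.70 and 10.7 CPM in MI 1 to MI 4, against 16.3, 22.9, 23.5 and 22.3 CPM in sham 1 to sham 4. Cdkn1c's log2 change was -1.14 ± 0.26 (adjusted p = 0.0083), and -1.16 without MI 3. Its groups did not overlap either, its mean after MI was highest in endothelial cells, at 56.8 CPM, and its call was lost in a fit of these 8 libraries alone (adjusted p = 0.0555), over a range of 0.0013 to 0.0555 across 20 alternatives.

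Signals between cells changed in part, beside 8.66% of all genes called higher and 1.03% lower (14.1% and 9.76% without MI 3). Of 28 growth factors and receptors of cardiomyocytes 5 were higher and 0 lower, with a count of 3 without MI 1 or sham 1 and 8 without MI 2. Hbegf, a ligand of the EGF receptor family, had 161, 67.9, 125 and 168 CPM in MI 1 to MI 4, against 39.4, 52.5, 46.5 and 47.1 CPM in sham 1 to sham 4. Hbegf's log2 change was 1.41 ± 0.23 (adjusted p = 0.00058), and 1.40 without MI 3. Its mean after MI was highest in cardiomyocytes, against 13.3 CPM in fibroblasts, 6.69 CPM in leukocytes and 14.3 CPM in endothelial cells. Of 27 TGF-beta and activin genes 7 were higher and 0 lower (9 and 4 without MI 3). Their higher count ran from 4 to 10 over the alternatives other than the 2-fold limit. Tgfb2, a ligand of the TGF-beta family, had 38.2, 15.5, 47.8 and 39.2 CPM in MI 1 to MI 4, against 9.06, 10.8, 10.0 and 10.7 CPM in sham 1 to sham 4. Tgfb2's log2 change was 1.64 ± 0.25 (adjusted p = 0.00024), and 1.45 without MI 3. All MI values were above the sham values. Of 21 genes of the Hippo pathway and YAP targets 3 were higher and 0 lower (4 and 0 without MI 3, and 1 without MI 1), Ctgf, Vgll3 and Ankrd1. Ctgf, a secreted matricellular protein, had 918, 419, 353 and 562 CPM in MI 1 to MI 4, against 76.97, 132, 128 and 143 CPM in sham 1 to sham 4. Ctgf's log2 change was 2.16 ± 0.26 (adjusted p = 4.6e-05), and 2.36 without MI 3. The groups were far apart.

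Matrix genes, the programme of the scar, were called higher in large numbers. Of 21 extracellular matrix proteins 14 were higher and 0 lower (15 higher without MI 3), of 21 matricellular and myofibroblast genes 14 and 0 (16 higher without MI 3), and of 19 matrix proteases and inhibitors 11 and 0 (13 higher without MI 3). Tnc, tenascin C, a matrix protein of wounds, had 212, 48.5, 226 and 163 CPM in MI 1 to MI 4, against 1.24, 1.98, 0.954 and 1.19 CPM in sham 1 to sham 4. Tnc's log2 change was 6.28 ± 0.42 (adjusted p = 5.5e-08), and 6.05 without MI 3. Col12a1, a collagen that links fibrils, had 30.5, 7.42, 37.2 and 23.3 CPM in MI 1 to MI 4, against 0.372, 0.944, 1.07 and 0.350 CPM in sham 1 to sham 4. Col12a1's log2 change was 4.25 ± 0.40 (adjusted p = 3.9e-06), and 3.98 without MI 3. Col1a1, the main scar collagen, had 607, 309.6, 666 and 649 CPM in MI 1 to MI 4, against 22.5, 48.3, 101 and 20.1 CPM in sham 1 to sham 4. Col1a1's log2 change was 3.77 ± 0.50 (adjusted p = 9.0e-05), and 3.67 without MI 3. None of the 3 overlapped, and MI 2 was the lowest MI library in each. The cardiomyocyte libraries after MI held 4.45% of the fibroblast mean of Tnc, 4.33% of that of Col12a1 and 8.84% of that of Timp1, beside 4.14% of the fibroblast marker sum.

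Genes of injury-associated macrophages were higher in 14 of 16 members, with 0 lower, with or without MI 3. Spp1, osteopontin, had 104, 52.95, 694 and 111 CPM in MI 1 to MI 4, against 0, 0.283, 0.358 and 0 CPM in sham 1 to sham 4. Spp1's log2 change was 7.82 ± 0.87 (adjusted p = 2.1e-05), and 7.06 without MI 3. Arg1, arginase 1 of repair macrophages, had 67.98, 35.2, 48.6 and 71.2 CPM in MI 1 to MI 4, against 0, 0, 0.119 and 0.0701 CPM in sham 1 to sham 4. Arg1's log2 change was 6.64 ± 0.44 (adjusted p = 5.5e-08), and 6.68 without MI 3. There were 2 sham reads in all, and the ratio of summed reads was 1128 (95% counting interval 312 to 9316). Lgals3, galectin 3, had 58.00, 26.8, 133 and 51.7 CPM in MI 1 to MI 4, against 0.869, 1.13, 3.10 and 0.421 CPM in sham 1 to sham 4. Lgals3's log2 change was 5.13 ± 0.51 (adjusted p = 6.1e-06), and 4.73 without MI 3. All 3 were separate between the groups, and MI 3 was the highest MI library for Spp1 and Lgals3. After MI the cardiomyocyte libraries held 5.09%, 6.28% and 9.74% of the mean of Spp1, Arg1 and Lgals3 in sorted leukocytes. The share was 3.93% for the pan-leukocyte sum and 4.78% for the monocyte and macrophage sum. Without MI 3 it was 1.89% for Spp1, 3.08% for the pan-leukocyte sum and 4.00% for the monocyte and macrophage sum. All 12 pan-leukocyte markers were called higher, with or without MI 3, and 7 of 12 monocyte and macrophage markers (6 without MI 3, 11 without sham 3). Of the other marker lists, 5 of 7 epicardial, 4 of 13 fibroblast, 4 of 11 mural (2 without MI 4) and 3 of 10 neutrophil markers were called higher. Of 14 endothelial markers 1 was called lower. The count was 0 without MI 1, MI 4, sham 2 or sham 4, 2 without MI 3 and 3 without sham 1, and 0 in a fit of these 8 libraries alone or with scaling to nuclear RNA other than ribosomal RNA, and 3 with median-of-ratios scaling. The mural list had 0 lower, but 1 without MI 2 and 2 without MI 3. Of the T and NK cell, B cell and erythroid markers 3, 6 and 6 were tested and 0 called by limma or edgeR (1, 0 and 0 at an unadjusted p under 0.05 in limma).

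Signals of inflammation were mixed, beside 8.66% of all genes called higher and 1.03% lower (14.1% and 9.76% without MI 3). Of 23 cytokines and chemokines 13 were higher and 0 lower, with or without MI 3, among them Ccl2, the chemokine that draws monocytes, with 14.03, 4.67, 16.2 and 14.8 CPM in MI 1 to MI 4, against 0.372, 0.566, 1.19 and 0.421 CPM in sham 1 to sham 4. Ccl2's log2 change was 3.43 ± 0.42 (adjusted p = 5.0e-05), and 3.26 without MI 3. Of 18 interferon-stimulated genes 1 was higher (0 without MI 1, sham 1 or sham 2) and 0 lower (3 without MI 3), and of 15 antigen presentation genes limma and edgeR called 0 (0 also at an unadjusted p under 0.05, and 1 higher called without MI 3). Of 18 complement genes 4 were higher, with 9 without sham 3. Of these, Clu, which encodes the chaperone and complement inhibitor clusterin, had its highest mean after MI in cardiomyocytes, with 1846, 1560.4, 1395 and 1568 CPM in MI 1 to MI 4, against 699, 603, 735 and 621 CPM in sham 1 to sham 4. Clu's log2 change was 1.26 ± 0.20 (adjusted p = 0.00034), and 1.32 without MI 3. The means of the other populations after MI were 17.7 CPM in fibroblasts, 66.9 CPM in leukocytes and 142 CPM in endothelial cells. Of 11 resident macrophage genes 2 were higher, and the count was 1 without MI 1, MI 4, sham 1 or sham 4, 4 without MI 2 and 5 without sham 3.

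**Figure D4:**
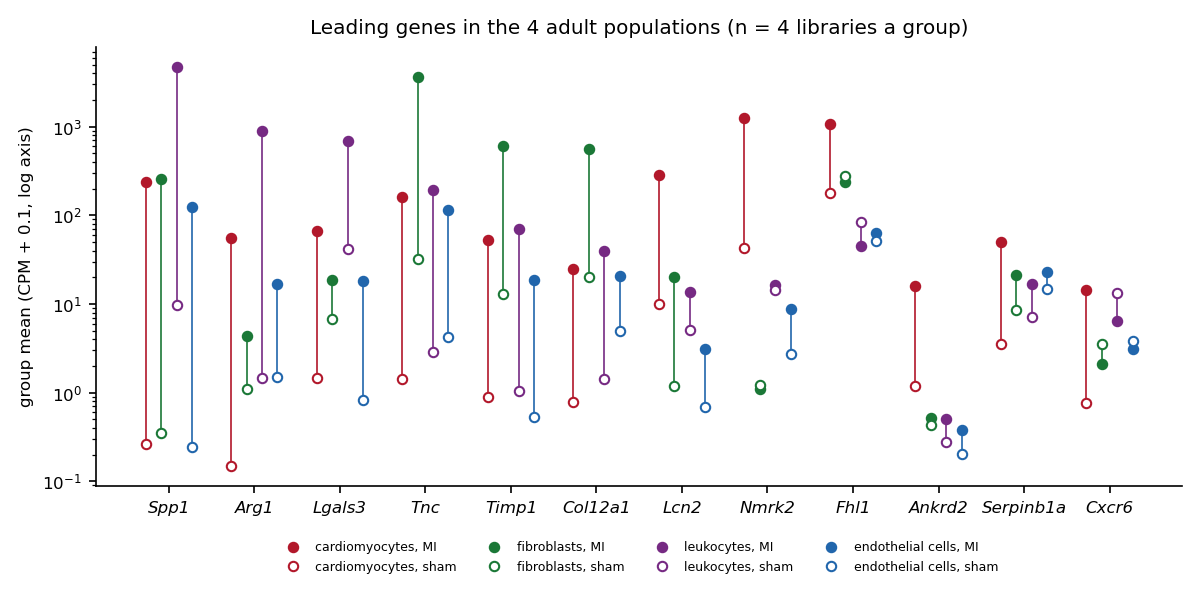
Group means (CPM + 0.1, log axis) of 12 leading genes in cardiomyocytes, fibroblasts, leukocytes and endothelial cells of P56 hearts, filled after MI and open after sham (n = 4 libraries a group). The first 6 genes are highest after MI in leukocytes or fibroblasts and the last 6 in cardiomyocytes, and in cardiomyocytes all 12 are higher after MI.

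For each gene the change after MI was also set against that of the other populations, over 32 P56 libraries. In 28 of 15260 genes tested (0.183%) the cardiomyocyte change was called higher and exceeded the change in leukocytes, fibroblasts and endothelial cells alike, each at an adjusted p under 0.05. Cardiomyocyte markers were themselves lower after MI in the sorted cells. Their sum in leukocytes was 12290 CPM after MI and 118325 CPM after sham. In fibroblasts it was 703 and 4243 CPM, and in endothelial cells 7171 and 14872 CPM. A fall in the sorted cells widens the difference as a rise in cardiomyocytes does, and its part in the comparison was not tested. The count was 9 without MI 1, 91 higher and 10 lower without MI 2, 148 higher and 478 lower without MI 3, 7 without MI 4 and 8 without sham 1. The 10 named genes of the 28 were Serpinb1a, Cxcr6, Ankrd2, Serpinb9b, Star, Fhl1, Loxl4, Slc41a2, Tbxas1 and Cspg4. Of these, Serpinb1a and Star met the rule under all 18 alternatives run, and Ankrd2, Cxcr6 and Cspg4 under 17 of 18, with Cspg4 lost without MI 4. Serpinb9b was lost without MI 4 or sham 1, Loxl4 without MI 1, MI 4 or sham 1, Fhl1 and Tbxas1 without MI 1, MI 4, sham 1, sham 2 or sham 4, and Slc41a2 without any library left out other than MI 2 and sham 4.

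Serpinb1a, an inhibitor of leukocyte proteases, had 44.9, 21.3, 97.3 and 38.3 CPM in MI 1 to MI 4, against 3.23, 3.11, 3.70 and 3.79 CPM in sham 1 to sham 4. Serpinb1a's log2 change was 3.48 ± 0.36 (adjusted p = 9.4e-06), and 3.10 without MI 3, and the smallest difference from another population's change was 2.18. Cxcr6, a chemokine receptor best known from T cells, had 15.02, 2.74, 20.9 and 18.9 CPM in MI 1 to MI 4, against 0.745, 0.566, 0.358 and 0.981 CPM in sham 1 to sham 4. Cxcr6's log2 change was 3.40 ± 0.42 (adjusted p = 5.2e-05), and 3.12 without MI 3, with a smallest difference of 3.65. Star, which carries cholesterol into mitochondria, had 9.24, 7.50, 30.2 and 12.8 CPM in MI 1 to MI 4, against 1.74, 1.98, 1.55 and 3.01 CPM in sham 1 to sham 4. Star's log2 change was 2.41 ± 0.31 (adjusted p = 7.1e-05), and 2.01 without MI 3, with a smallest difference of 2.61. MI 2 was the lowest and MI 3 the highest MI library in these 3 genes, and none overlapped with sham. For Cxcr6 and Star the smallest difference was larger than their own change, so the changes in the other populations were negative. After MI the means of sorted cells were 2.01 CPM in fibroblasts, 6.30 CPM in leukocytes and 3.00 CPM in endothelial cells for Cxcr6. The 12 T and NK cell markers summed to 1.13 to 2.21 CPM after MI and 0.421 to 1.91 CPM after sham in the cardiomyocyte libraries. Ankrd2, described above, differed by at least 2.87, and its mean after MI was 37.7 times the highest of the other populations.

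The same operation at P1, when mouse heart muscle still regrows after injury, was set against that at P56. The difference of the log2 changes, P56 minus P1, was positive in 261 of 15461 genes (1.69%) and negative in 9 (0.0582%). With P56 libraries left out, these counts were 1251 and 1047 without MI 3, 644 and 41 without MI 2, and 372 and 24 without sham 3, while the positive count was 149 without MI 1, 162 without MI 4, 168 without sham 1 and 173 without sham 4, and the negative count was 5 without MI 1. The labels give no sex for the pups, their hearts were pooled and stirred in enzyme rather than perfused, and age cannot be told apart from these. The largest positive differences were Tnc (5.93 ± 0.59, adjusted p = 9.0e-05), Lcn2 (4.91 ± 0.85, adjusted p = 0.0043), Saa3 (4.67 ± 1.07, adjusted p = 0.030), Timp1 (4.11 ± 0.59, adjusted p = 0.0022) and Col12a1 (3.79 ± 0.57, adjusted p = 0.0022). For Saa3 the call was lost without MI 1, MI 4, sham 1, sham 2 or sham 4 (adjusted p = 0.076, 0.076, 0.064, 0.0543 and 0.060; 1.8e-05 to 0.080 over the alternatives). At P56 Lcn2 averaged 283 ± 178 CPM after MI and 10.0 ± 5.41 CPM after sham, against 11.9 ± 5.34 CPM after MI and 18.4 ± 11.6 CPM after sham at P1 (SD, n = 4 each). Saa3, an acute phase protein, had 65.7, 30.6, 11.3 and 65.9 CPM in MI 1 to MI 4, against 0, 0, 0.119 and 0.0701 CPM in sham 1 to sham 4, 2 sham reads in all, and a ratio of summed reads of 807 (95% counting interval 223 to 6669).

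The largest negative differences were Mylk4 (-2.42 ± 0.50, adjusted p = 0.016), Lgi1 (-1.94 ± 0.42, adjusted p = 0.020), Cmya5 (-1.79 ± 0.37, adjusted p = 0.016), Amy1, the gene of an amylase (-1.78 ± 0.43, adjusted p = 0.042) and Cep112, which encodes a centrosomal protein (-1.58 ± 0.35, adjusted p = 0.021). The call was lost for Amy1 without MI 1, MI 4, sham 1, sham 2 or sham 4 (adjusted p = 0.085, 0.095, 0.089, 0.079 and 0.084; 4.0e-05 to 0.14 over the alternatives), for Cep112 without MI 1 or MI 4 (adjusted p = 0.0537 and 0.0535; 5.5e-05 to 0.077 over the alternatives) and for Lgi1 without MI 1 or MI 4 (adjusted p = 0.0537 and 0.052; 0.00011 to 0.21 over the alternatives). Mylk4 averaged 6.82 ± 1.77 CPM after MI and 4.19 ± 2.01 CPM after sham at P1. Cell cycle genes also differed by age: 15 of 25 G2 and M phase genes and 12 of 25 DNA replication genes had a positive difference and 0 a negative one (19 and 17 positive without MI 3). At P56 Cdk1 averaged 7.65 ± 3.70 CPM after MI and 0.933 ± 0.263 CPM after sham, against 112 ± 12.8 CPM after MI and 148 ± 33.2 CPM after sham at P1. The log2 change of Nppa was 2.37 at P56 and 1.56 at P1, a difference of 0.81 ± 0.65, adjusted p = 0.54. That of Clu was 1.26 at P56 and 1.33 at P1, a difference of -0.07 ± 0.28, adjusted p = 0.92.

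**Figure D5:**
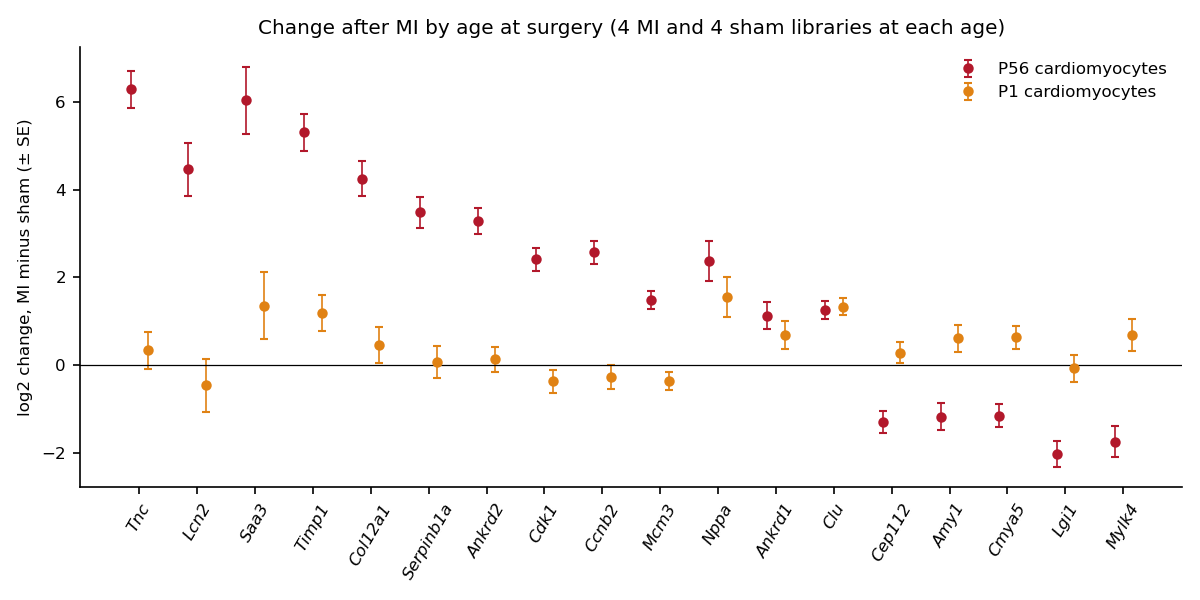
Log2 change after MI (MI minus sham ± SE, 4 MI and 4 sham libraries at each age) of 18 genes in P56 cardiomyocytes (red) and P1 cardiomyocytes (orange). From Tnc to Mcm3 the P56 change is above the P1 change, Nppa, Ankrd1 and Clu are above 0 at both ages, and from Cep112 to Mylk4 the P56 change is below 0 while the P1 change is near or above 0.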

How the data were processed

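RNA sequencing (50-base reads, per the labels) was used from 40 of the 64 libraries, and the 24 P1 libraries of other populations were not analysed here. The authors deposited 1 table of CPM per gene and library, and per the submitters' processing notes Trimmomatic, STAR, HTSeq and edgeR were used, without versions, with the builds mm10, GRCm38 and GRCh38. Whether counting used strand is not given by the labels or notes. The deposited values are a signal per effective library size rather than CPM of total reads, since the columns sum to 0.777 to 2.63 M. They were whole multiples of 1 read for 100% of values (tolerance 0.01 reads), so counts were recovered from the deposited values, and a library with more RNA of few kinds has a scaling that moves its other genes. Gene IDs were matched to GENCODE M21 (20541 found, of which 20540 overlapped the annotated gene, and 96 not found).

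Genes with at least 1 CPM in 4 of the fitted libraries were tested with limma 3.58.1 (R 4.3.3, mean-variance trend) on log2(CPM + 0.5), over the 16 cardiomyocyte libraries for MI against sham and for its difference between ages, and over the 32 P56 libraries for the differences between populations. P-values were adjusted by the Benjamini-Hochberg method over all genes, with calls under 0.05. Steps across genes were tested on simulated data. No libraries of a group held identical values or agreed within sampling noise by a chi-square test of their reads. Counting floors and intervals cover counting error only. The alternatives were pseudocounts of 0.1 and 1, no filter or 5 CPM, median-of-ratios and nuclear-RNA scaling, array weights, edgeR 4.0.16's quasi-likelihood test on recovered reads, a replicate block, a fit of 8 libraries, a 2-fold limit, each library left out, and both libraries numbered 3 left out.

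The comparison, the 50 gene lists and the alternative without both libraries numbered 3 were chosen with earlier results of these data known. Genes were named by rank: the 15 largest changes each way without overlap and with a mean of at least 5 CPM, up to 3 called members of each list by adjusted p or, where none was called, the 2 of highest mean CPM, the 10 largest changes among genes above each other population, and the 5 largest age differences each way; fewer are printed, and some members are not reported here. Myl4, Myl7, Myh7, Acta1, Atp2a2, Pln, Runx1, Socs3, Ptprc, Mki67, Malat1 and the sequences shown were chosen after their values were seen. Sequences are RefSeq's, on GRCm38.p6.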

Additional observations from a re-analysis of the deposited data

Results flagged for a closer look

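Among 168 groups of 4 libraries of the named genes, 9 had a library far from the other 3 (gap over range above 0.829). That share is near the 1 in 20 groups that chance gives. The sham libraries that stood apart were sham 1 for Cdkn1c (16.3 CPM), Uchl1 (0.621 CPM) and Sprr1a (0.124 CPM), and sham 3 for Cspg4 (98.7 CPM) and Amy1 (8.22 CPM). The MI libraries were MI 2 for Col1a1 (309.6 CPM), Ccl2 (4.67 CPM) and Cxcr6 (2.74 CPM), and MI 4 for Klrb1c (0.0868 CPM). For Sprr1a and Klrb1c the value was 1 read and the other libraries of the group had 0. Any read then gives a gap over range of 1.

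The response of P56 cardiomyocytes differed from that at P1, by the interaction term in limma, in 261 genes with a positive and 9 with a negative difference. Among the named genes the log2 difference of responses, P56 minus P1, was 5.93 for Tnc, 4.91 for Lcn2, 4.67 for Saa3, 4.11 for Timp1 and 3.79 for Col12a1. It was -2.42 for Mylk4, -1.94 for Lgi1, -1.79 for Cmya5, -1.78 for Amy1 and -1.58 for Cep112.

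The cardiomyocyte response exceeded that of each other population in 28 genes, by limma. The smallest of the 3 log2 differences was 3.65 for Cxcr6, 2.87 for Ankrd2, 2.61 for Star, 2.18 for Serpinb1a, 2.09 for Fhl1, 1.88 for Serpinb9b, 1.67 for Loxl4, 1.54 for Cspg4, 1.29 for Tbxas1 and 0.918 for Slc41a2.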

How the results depend on the processing

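Against 1339 higher and 159 lower calls after MI, array weights gave 3413 and 2303, leaving out both libraries numbered 3 gave 2674 and 1918, the fit of 8 libraries gave 523 and 16, median-of-ratios scaling gave 321 lower, nuclear-RNA scaling 63 lower and a 2-fold limit 80 lower, with 849 to 2175 higher and 47 to 1504 lower over the single P56 cardiomyocyte libraries left out. edgeR called 1027 higher and 174 lower. Against 261 positive and 9 negative age differences, array weights gave 3706 and 2313, both libraries numbered 3 left out gave 1955 and 1503, nuclear-RNA scaling 156 positive, a pseudocount of 1 14 negative and no filter 16 negative, with 149 to 1251 and 5 to 1047 over single libraries left out. Against 28 genes above and 0 below each other population, a filter of 5 CPM gave 14 above, nuclear-RNA scaling 10, a 2-fold limit 16, both libraries numbered 3 left out 264 and 741, median-of-ratios scaling 4 below and edgeR 1 below, with 7 to 148 above and 0 to 478 below over single libraries left out. The replicate block gave 974 higher and 78 lower calls, 91 and 4 age differences, and 29 and 1 against the populations. Same-numbered MI and sham libraries correlated at 0.075, -0.170, -0.408 and -0.231 in their deviations, and libraries of different numbers at -0.362 to 0.442. With 4 same-numbered values this cannot decide whether the numbers pair the libraries. Same-numbered libraries of different populations were not compared in this way. Acta1 and Malat1, neither of them called, turned direction: Acta1 was 0.20 with array weights, 0.27 without both libraries numbered 3 and -0.46 to 0.25 over single libraries left out (0.03 without sham 2, 0.25 without sham 3). Malat1 was -0.40 with array weights, -0.38 without both libraries numbered 3 and -0.23 to 0.71 over single libraries left out (-0.23 without MI 3). Of 78 called results of named genes, 22 were lost under at least 1 of 20 settings. The cause of these moves was not tested. With 4 libraries a group, exact tests of library measures cannot go below 0.0286.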
